A study of Danio rerio with 16 samples.

Results

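Radial glia are the progenitor and support cells of the embryonic zebrafish brain, and 6 genes of their filaments, transporters, junctions and dorsal progenitor fate are described here: gfap, vim, slc1a2b, slc1a3a, gja1b and olig3. They were chosen with earlier results of these data known. Every probe set (a group of short probes reading a transcript) was taken whose only symbol in the platform annotation was one of the 6. That gave 7 of the 15502 probe sets on the array, 2 of them for olig3 and 1 for each other gene, from 8793 distinct symbols in all.

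Radial glia span the wall of the neural tube, divide to give neurons and, in fish, persist and carry out many tasks of mammalian astrocytes. Gfap and vimentin build their intermediate filaments, while glutamate transporters of the Slc1 family clear glutamate from around synapses and connexin channels join the cells into networks. Olig3 is a transcription factor of progenitors in the dorsal neural tube. None of these genes is expressed in glia alone: vim also marks mesenchyme, lens and vessels, and gja1b encodes a connexin of many tissues.

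Total RNA from 16 zebrafish (Danio rerio) samples was read on an Affymetrix array, 1 colour and 1 intensity per probe set. The groups were foggy mutants at 36 h (6 arrays, numbered 1 to 6 in their titles), wild type at 36 h (4 arrays, numbered 1, 4, 5 and 6), and embryos at 12 somites given Foggy(DelCter) RNA (3 arrays) or a control RNA (3 arrays). The 36 h material is described as embryonic brain, whereas the labels of all samples name brain and adrenal medulla. The labels give no allele, strain, dose, number of pooled animals or clutch, and each p-value therefore reflects only how these arrays scatter, which could be technical scatter alone. The comparisons ask which transcripts differ in the mutant and which differ after the altered foggy RNA.

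The 36 h arrays split by title number, and numbers 1 to 3 (3 labelled mutant and 1 wild type) are kept apart from numbers 4 to 6 (3 and 3) below. The summed intensity of 15 neuron markers was 18240 to 18410 units in numbers 1 to 3 and 1874 to 4543 units in numbers 4 to 6. For 6 endoderm and yolk layer markers the sum was 780.1 to 1101 units in numbers 1 to 3 and 38070 to 43870 units in numbers 4 to 6, so arrays 4 to 6 carried transcripts of those tissues although described as brain. The targeted gene, supt5h, averaged 41.9 ± 4.51 units in mutant arrays 4 to 6 and 198 ± 32.5 units in wild-type arrays 4 to 6 (SD, n = 3 each). It averaged 252 ± 6.91 units in arrays labelled mutant 1 to 3 (n = 3) and 210 units in wild-type array 1. The supt5h level thus does not bear out the label from which the genotype of those 3 arrays is taken. Their genotype was not tested otherwise, and marker sums of these arrays are given below. At 12 somites supt5h averaged 428 ± 43.6 units with Foggy(DelCter) RNA and 409 ± 23.9 units with control RNA (SD, n = 3 each), which did not pass the test (log2 difference 0.06 ± 0.12, limma adjusted p = 0.802), so this probe set gives no check of the injection labels. The 17 unused tag control probe sets, which match no zebrafish transcript and stand here for background, reached at most 10.8 to 34.4 units depending on the array.

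**Figure D1:**
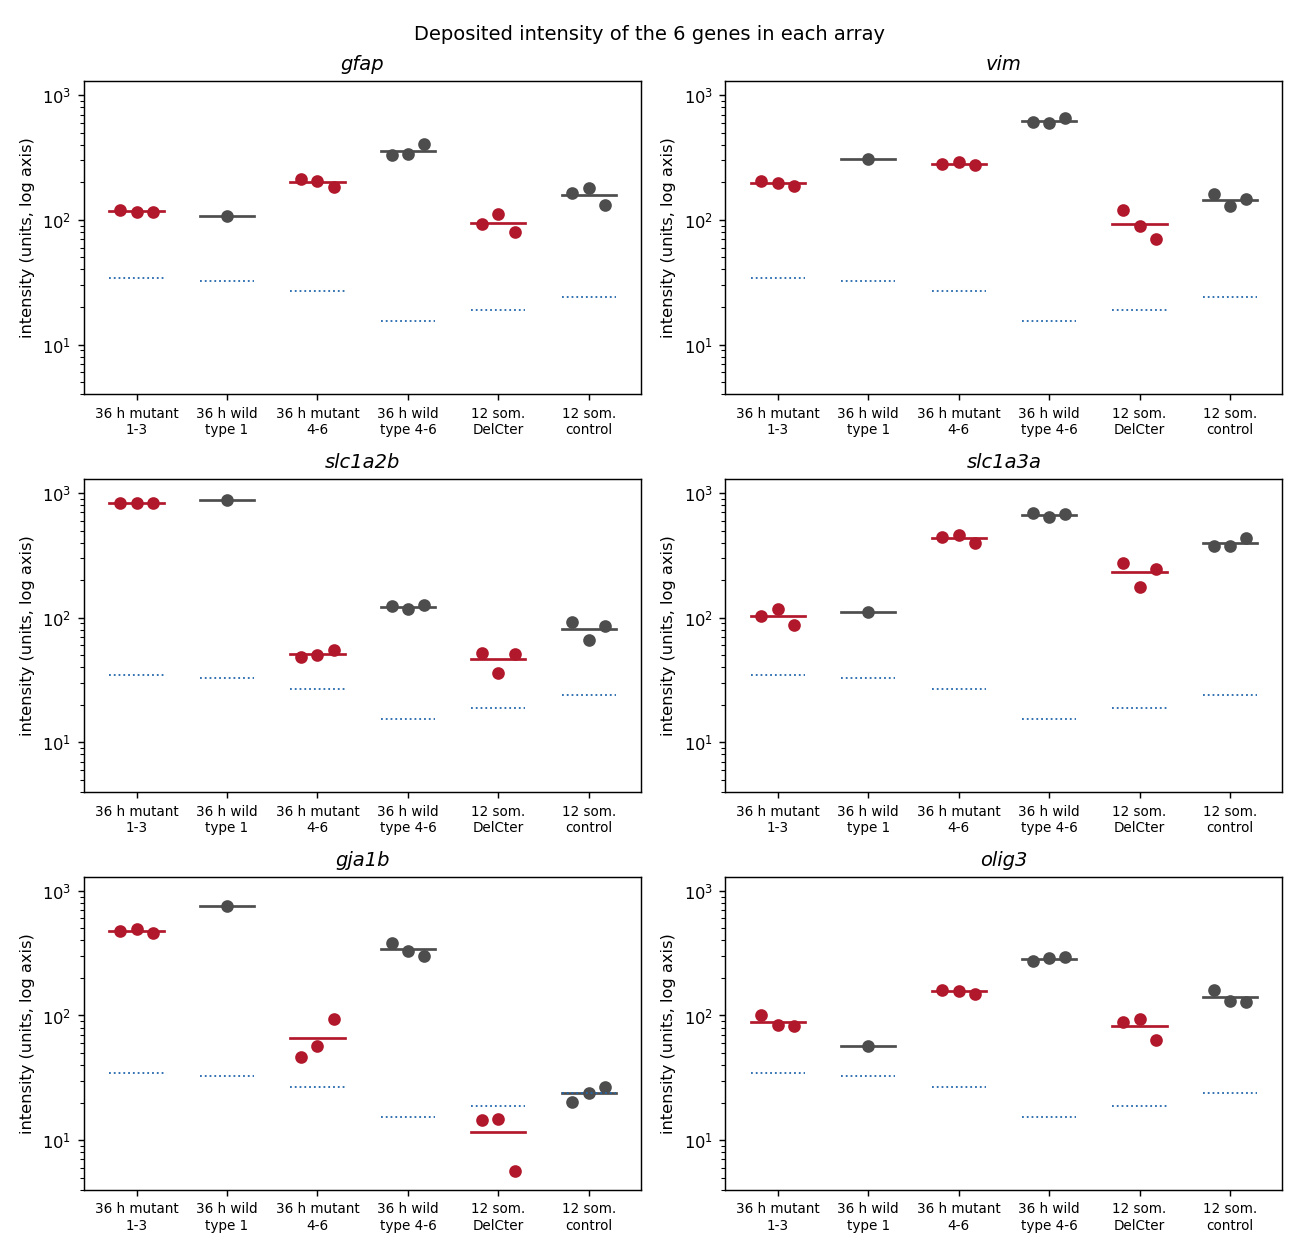
Deposited intensity in units on a log axis for each of the 6 genes (the brighter olig3 probe set), with a point per array, a solid bar at the group mean and a dotted line at the highest tag control of the group's arrays. Red marks mutant or Foggy(DelCter) samples and grey wild type or control. In numbers 4 to 6 and at 12 somites every red point lies below every grey point of the same pair, and slc1a2b and slc1a3a part the numbers 1 to 3 from 4 to 6 in opposite directions.

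In arrays 4 to 6, all 6 genes had lower transcript levels in the mutant than in the wild type, and for none of them did the arrays of the 2 groups overlap. The connexin gja1b had the lowest ratio, with a mutant mean of 19.4% of the wild-type mean, while slc1a3a kept 64.7%. Of the 7 probe sets 6 passed the filter on dim signal, and these 6 fell and none rose (limma adjusted p of 0.000166 to 0.00608). Among all 10851 probe sets tested, 10.4% were called lower and 8.95% higher, and 18.4% were lower without overlap between the groups. The median log2 difference of the 6 was -0.86, beside 0.06 over all probe sets tested. Because the 6 genes and the split by title number were chosen with earlier results known, these figures describe the 6 and test nothing about them as a set. In such bulk samples, fewer cells of a type and less RNA per cell cannot be told apart.

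Of the 2 filament genes, gfap measured 213, 206 and 185 units in mutant arrays 4, 5 and 6, against 331, 337 and 404 units in wild-type arrays 4, 5 and 6. The log2 difference was -0.75 ± 0.12 (SE, limma adjusted p = 0.00342), on the log2(value + 16) scale used throughout. The mutant mean of the gfap transcript was thus 56.4% of the wild-type mean, and array 6 held both the lowest mutant and the highest wild-type value. Radial glia are often stained for the Gfap protein, which was not measured here. The second filament gene, vim, measured 283, 290 and 274 units in the mutant, against 614, 596 and 657 units in the wild type. Vim fell by 1.08 ± 0.10 on the log2 scale (adjusted p = 0.000203), and its arrays within a group lay close together.

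Of the glutamate transporters, slc1a2b measured 48.2, 50.1 and 54.9 units in the mutant, against 124, 117 and 127 units in the wild type. Its mammalian counterpart is the main astrocytic glutamate transporter of the forebrain. The log2 difference of slc1a2b was -0.95 ± 0.10 (adjusted p = 0.000453), and the mutant values remained above the tag controls in all 3 arrays. Slc1a3a, whose mammalian counterpart is the transporter of radial and cerebellar glia, measured 446, 458 and 400 units in the mutant, against 692, 641 and 684 units in the wild type. It fell by 0.60 ± 0.11 (adjusted p = 0.00608), the smallest difference of the 6.

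Gja1b encodes connexin 43, the main gap junction protein of astrocytes in mammals. It measured 46.8, 56.7 and 93.6 units in mutant arrays 4, 5 and 6, against 384, 332 and 303 units in wild-type arrays 4, 5 and 6, a log2 difference of -2.02 ± 0.18 (adjusted p = 0.000166). All 3 mutant values were above the tag controls of their own arrays, and mutant array 6 lay well above mutant array 4. The wild-type values differed less in proportion, though not in units.

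Olig3, a helix-loop-helix factor of dorsal progenitors, measured 161, 159 and 148 units in the mutant, against 273, 291 and 293 units in the wild type on its brighter probe set. The log2 difference was -0.77 ± 0.10 (adjusted p = 0.00134). The second olig3 probe set read 0.591 to 7.09 units in the mutant and 9.81 to 13.3 units in the wild type. It was above the tag controls in 1 of these 6 arrays, did not pass the filter, and gives no level for the gene.

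Between same-numbered arrays, the mutant held 12.2%, 17.1% and 30.9% of the wild-type gja1b signal in numbers 4, 5 and 6. The corresponding shares were 46.1%, 48.6% and 41.7% for vim and 38.8%, 42.9% and 43.3% for slc1a2b. These ratios thus had a narrow range for vim and slc1a2b and a wide one for gja1b.

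**Figure D2:**
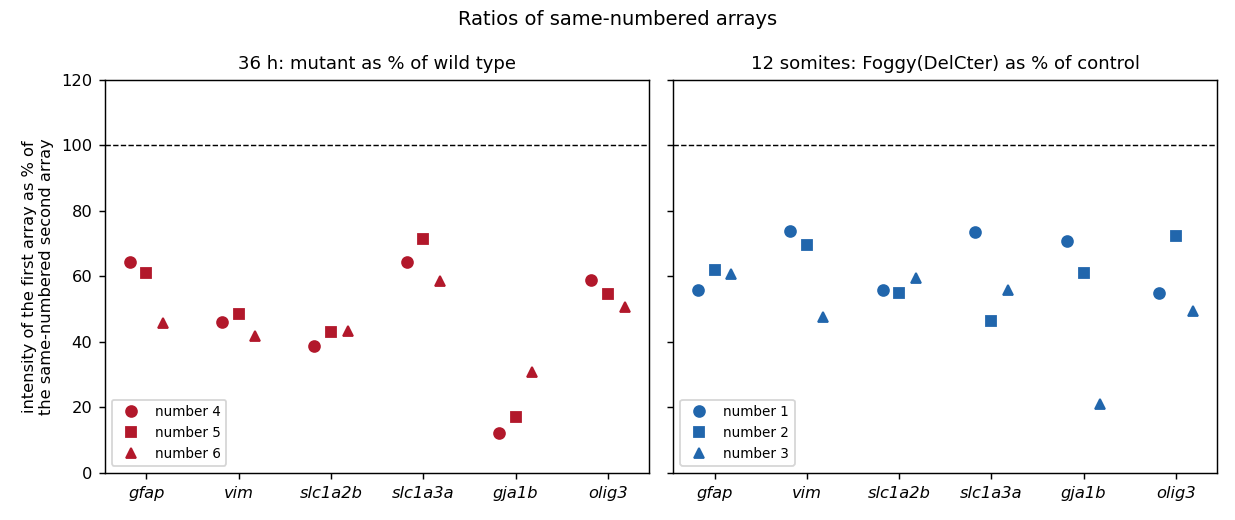
Intensity of each mutant array as a percentage of the wild-type array of the same number (left, numbers 4 to 6) and of each Foggy(DelCter) array as a percentage of the control RNA array of the same number (right, numbers 1 to 3), with the dashed line at 100%. All 36 points lie below the line, as they must where the arrays of the 2 groups do not overlap. Gja1b ranges from 12.2% to 30.9% at 36 h and from 21.1% to 70.9% at 12 somites.

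At 12 somites, all 6 genes were likewise lower after Foggy(DelCter) RNA than after control RNA. The means with Foggy(DelCter) were 56.8% to 63.8% of the control means for the 5 genes above background, a narrower range than at 36 h, and gja1b was too dim for its size to be set. Again 6 of the 7 probe sets passed the filter, and 6 were called lower and none higher, at limma adjusted p-values of 0.0126 to 0.0438. The highest of these is that of gja1b, which was above the tag controls in 0 of the 3 Foggy(DelCter) arrays. Without control array 2 or control array 3, gja1b did not pass the filter, so its call adds little to this count. Among all 10851 probe sets tested, 7.55% were called lower and 3.72% higher, and 17.6% were lower without overlap between the groups. The median log2 difference of the 6, gja1b included, was -0.65, beside -0.02 over all probe sets tested. Here too the 6 were chosen with earlier results known, so these figures are description only. This comparison shares no array with that at 36 h.

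For the filament genes, gfap measured 92.5, 112 and 79.8 units in Foggy(DelCter) arrays 1, 2 and 3, against 165, 182 and 131 units in control arrays 1, 2 and 3. Its log2 difference was -0.66 ± 0.15 (adjusted p = 0.0187). Vim measured 119, 89.2 and 69.9 units with Foggy(DelCter) RNA, against 162, 128 and 147 units with control RNA, and fell by 0.59 ± 0.17 (adjusted p = 0.0424). The highest vim array with Foggy(DelCter) lay just below the lowest control array.

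The transporter slc1a2b measured 51.7, 36.3 and 51.3 units with Foggy(DelCter) RNA, against 92.7, 66.1 and 86.2 units with control RNA. Number 2 was lowest in both groups, and the log2 difference was -0.65 ± 0.15 (adjusted p = 0.0201). Slc1a3a measured 275, 175 and 244 units with Foggy(DelCter), against 375, 377 and 437 units with control RNA. Its log2 difference of -0.76 ± 0.16 (adjusted p = 0.0126) stood beside a mean with Foggy(DelCter) of 58.4% of the control mean, close to the 56.8% of slc1a2b.

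Olig3 measured 88.3, 94.5 and 63.2 units with Foggy(DelCter) RNA, against 161, 131 and 128 units with control RNA. It fell by 0.68 ± 0.15 on the log2 scale (adjusted p = 0.0172). Gja1b measured 14.4, 14.7 and 5.67 units with Foggy(DelCter), against 20.3, 24.0 and 26.8 units with control RNA. None of the 3 Foggy(DelCter) values and 2 of the 3 control values exceeded the tag controls of their own array. The call for gja1b (log2 difference -0.54 ± 0.15, adjusted p = 0.0438) therefore rests on signal at background. With each Foggy(DelCter) array's highest tag control in place of its lower value, the control level was 1.62-fold that with Foggy(DelCter). Only 2 of the 3 control arrays were measured above background, so this ratio is no lower bound on the fall.

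Calls at 12 somites were less stable than those at 36 h. With 1 array left out, all 6 genes were still called in each of the 6 fits of numbers 4 to 6. Calls over all probe sets ran from 1165 to 1590 in these fits, against 2098 with all arrays. At 12 somites, 1 gene was called without control array 1, 2 genes without control array 3, 2 without Foggy(DelCter) array 3 and 3 without Foggy(DelCter) array 2, against 4 without either of the other arrays. Gja1b passed the filter in 4 of these 6 fits at 12 somites and was called in none of them. All differences kept their sign. Over all probe sets, calls in these 12-somite fits ran from 597 to 923, against 1223 with all arrays. Without the filter, 3 of the 6 genes were called at 12 somites, and 750 of all probe sets.

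**Figure D3:**
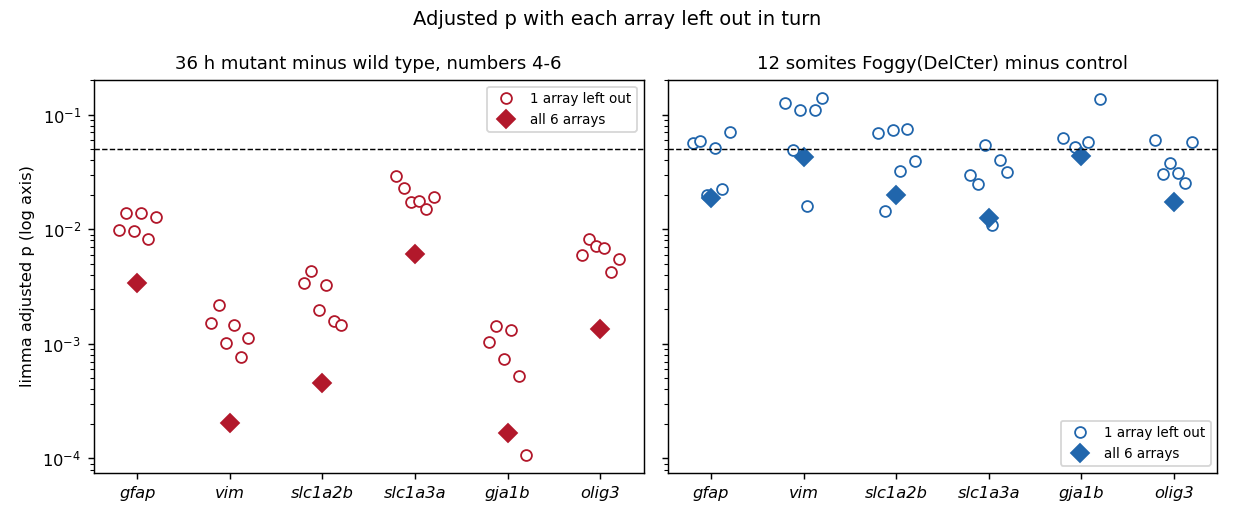
Limma adjusted p on a log axis for each gene with all 6 arrays (diamonds) and with 1 array left out (open circles), at 36 h in numbers 4 to 6 (left) and at 12 somites (right); the dashed line is 0.05. At 36 h every circle lies below the line, up to 0.0292 for slc1a3a, and at 12 somites each gene has circles above it, up to 0.141 for vim. For gja1b at 12 somites all 4 circles lie above the line, from 0.0525 to 0.136, and the other fits did not test it.

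RNA integrity and markers of other cells were read in the same arrays. For the GAPDH control transcript, log2 of the 3' over the 5' signal was 0.521 to 0.844 in mutant arrays 4 to 6 and 0.518 to 0.609 in wild-type arrays 4 to 6, and 0.597 to 0.889 with Foggy(DelCter) RNA and 0.422 to 0.632 with control RNA. The groups overlapped in both cases. In numbers 1 to 3 the GAPDH value was 0.827 to 0.952 in arrays labelled mutant, which overlapped mutant arrays 4 to 6. It was 0.835 in wild-type array 1, above all of wild-type arrays 4 to 6. The summed intensity of the 15 neuron markers was 1874 to 2234 units in mutant arrays 4 to 6 and 3684 to 4543 units in wild-type arrays 4 to 6, and 929.1 to 967.1 units with Foggy(DelCter) RNA and 1400 to 1468 units with control RNA. All 15 were above the tag controls in some array of each 36 h group, and 5 were not in any Foggy(DelCter) array and 3 not in any control RNA array. The sum over 10 skeletal muscle markers was 7520 to 9133 units in mutant arrays 4 to 6 and 27900 to 42910 units in wild-type arrays 4 to 6, and 1051 to 1470 units with Foggy(DelCter) RNA and 2141 to 2757 units with control RNA. The 6 endoderm and yolk layer markers summed to 41070 to 43870 units in mutant arrays 4 to 6 and 38070 to 40150 units in wild-type arrays 4 to 6, and 9465 to 10740 units with Foggy(DelCter) RNA and 19570 to 20970 units with control RNA. In numbers 1 to 3 the muscle sum was 2061 to 2114 units in arrays labelled mutant and 5517 units in wild-type array 1. The neuron sum was 18240 to 18370 units in arrays labelled mutant 1 to 3 and 18410 units in wild-type array 1. For the endoderm and yolk layer markers it was 780.1 to 813.4 units and 1101 units in the same order. The part of these markers and of RNA integrity in the differences of the 6 genes was not tested.

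**Figure D4:**
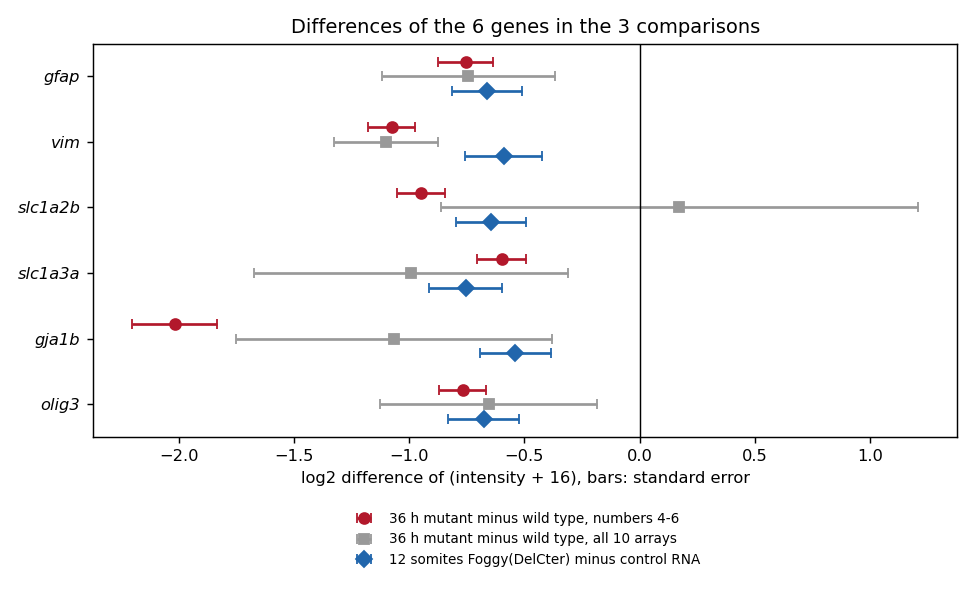
Log2 difference of (intensity + 16) with its standard error for each gene, for the mutant minus wild type in numbers 4 to 6 (red circles), the mutant minus wild type over all 10 arrays at 36 h (grey squares) and Foggy(DelCter) minus control RNA at 12 somites (blue diamonds). Red and blue symbols are all left of 0, gja1b stands apart at -2.02 in red, and the grey bars are wide, with slc1a2b at 0.17.

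Set against each other in 1 fit over the 12 arrays of both comparisons, the mutant and Foggy(DelCter) effects differed for gja1b. The difference between the log2 effects was -1.68 ± 0.27 (adjusted p = 0.00119), 10.3% of all probe sets being called in this test. Because gja1b was at background at 12 somites, the size of its effect there is not measured and this difference includes that limit. With a pseudocount of 1 in place of 16, which gives dim values more weight, gja1b was no longer called (-1.45, adjusted p = 0.0839). Of the other 5 genes none was called: vim differed by -0.55 ± 0.20 (adjusted p = 0.0993), slc1a2b by -0.47 ± 0.19 (adjusted p = 0.133), olig3 by -0.22 ± 0.19, gfap by -0.19 ± 0.20 and slc1a3a by 0.16 ± 0.20. Of the 6, 3 had an unadjusted p under 0.05.

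Over all 10 arrays at 36 h, as the labels group them, none of the 6 genes passed, and 1, vim, had an unadjusted p under 0.05 by limma. Vim had a log2 difference of -1.10 ± 0.23 (adjusted p = 0.111), with 189 to 290 units in the 6 arrays labelled mutant and 307 to 657 units in the 4 wild-type arrays, which did not overlap. Of all probe sets tested, 0.221% were called in this fit and 1.62% were lower without overlap. With the replicate number as a block, over numbers 1, 4, 5 and 6, 4 of the 6 fell: vim (-0.96 ± 0.12, adjusted p = 0.00285), gja1b (-1.70 ± 0.24, adjusted p = 0.00486), slc1a2b (-0.73 ± 0.16, adjusted p = 0.0262) and slc1a3a (-0.48 ± 0.12, adjusted p = 0.0451). In that fit 5.86% of all probe sets were called lower. With the number set as the block the same 4 genes fell, where 7.13% of all probe sets were called lower.

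Within numbers 1 to 3, with a single wild-type array whose spread is assumed to be that of the other groups, only vim was called of the 6, where 0.673% of all probe sets were called lower. Vim measured 205, 199 and 189 units in arrays labelled mutant 1, 2 and 3, against 307 units in wild-type array 1 (log2 difference -0.66 ± 0.12, adjusted p = 0.0402). Gja1b measured 477, 490 and 455 units in arrays labelled mutant and 755 units in the wild-type array, which did not pass (-0.74 ± 0.23, adjusted p = 0.242). Both genes, and slc1a2b, were lower in each of the 3 arrays labelled mutant than in the wild-type array, while gfap and olig3 were higher in each. The share of all probe sets with such an order against a single array was not counted. This order is therefore no result about these genes.

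The remaining genes of numbers 1 to 3 did not pass either. Olig3 measured 100, 83.8 and 82.0 units in arrays labelled mutant, against 56.7 units in the wild-type array (0.59 ± 0.14, adjusted p = 0.116), above it in every array. Gfap measured 120, 117 and 115 units in arrays labelled mutant and 108 units in the wild-type array, and slc1a2b 831, 824 and 835 units and 883 units. Slc1a3a measured 103, 117 and 88.1 units in arrays labelled mutant and 112 units in the wild-type array, which lay within their range.

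The effect in numbers 4 to 6 differed from that in numbers 1 to 3 for 4 of the 6 genes, a call made for 2.39% of all probe sets in that direction. The difference of the log2 effects was -1.36 ± 0.18 for olig3 (adjusted p = 0.00252), -0.86 ± 0.15 for slc1a2b (adjusted p = 0.0122), -0.86 ± 0.18 for gfap (adjusted p = 0.0258) and -1.28 ± 0.28 for gja1b (adjusted p = 0.0356). For vim it was -0.42 ± 0.15 (adjusted p = 0.157) and for slc1a3a -0.46 ± 0.20 (adjusted p = 0.229). All 4 rest on the single wild-type array of numbers 1 to 3, and without the filter gfap (adjusted p = 0.0501) and gja1b (adjusted p = 0.0616) were no longer called.

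Among arrays with the same mutant label, numbers 1 to 3 and numbers 4 to 6 differed for all 6 genes, 2 of them higher and 4 lower in numbers 1 to 3. Slc1a2b averaged 830 ± 5.28 units in numbers 1 to 3 and 51.0 ± 3.44 units in numbers 4 to 6 (SD, n = 3 each), a log2 difference of 3.63 ± 0.09 (adjusted p = 2.44e-09). Slc1a3a, the other transporter, averaged 103 ± 14.4 units in numbers 1 to 3 and 435 ± 30.4 units in numbers 4 to 6, a log2 difference of -2.03 ± 0.12 (adjusted p = 4.81e-07). The 2 glutamate transporters thus parted the sets in opposite directions.

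Gja1b was also higher in arrays labelled mutant 1 to 3, at 474 ± 17.6 units, against 65.7 ± 24.6 units in mutant arrays 4 to 6 (log2 difference 2.53 ± 0.17). Olig3 was lower in numbers 1 to 3 (-0.91 ± 0.11), as were gfap (-0.82 ± 0.09) and vim (-0.52 ± 0.09), all at adjusted p-values of 0.00059 or less. Such a difference was common, with 34.3% of all tested probe sets higher in numbers 1 to 3 and 37.1% lower there. With the values as deposited the split was 4654 higher and 3182 lower, against 3727 and 4025 after quantile normalization, and the median over all probe sets was 0.14 and -0.04; the 6 genes kept their signs and calls. This comparison and that of the mutant with the wild type share the mutant arrays 4 to 6.

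The wild type at 36 h (numbers 4 to 6) had higher levels of all 6 genes than the control RNA embryos at 12 somites. Stage, material and injection differ together between these groups and cannot be told apart, and the wild-type arrays are those used against the mutant. Gja1b averaged 339 ± 40.9 units at 36 h and 23.7 ± 3.28 units at 12 somites (SD, n = 3 each), at least 13.6-fold higher with each control array's highest tag control as the floor (2 of the 3 control arrays lay above it; log2 difference 3.17 ± 0.13, adjusted p = 6.45e-08). Vim averaged 622 ± 31.2 units at 36 h and 146 ± 16.7 units at 12 somites, a rise of 2.01 ± 0.12 (adjusted p = 7.95e-07). Of all probe sets, 25% were called higher at 36 h.

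The other 4 genes rose less. Gfap averaged 357 ± 40.8 units at 36 h and 159 ± 25.8 units at 12 somites (1.16 ± 0.15, adjusted p = 9.35e-05). Olig3 averaged 286 ± 10.7 units and 140 ± 18.3 units (1.02 ± 0.12, adjusted p = 7.97e-05) in the same order. Slc1a3a and slc1a2b rose by 0.76 ± 0.12 (adjusted p = 0.000371) and 0.54 ± 0.13 (adjusted p = 0.00542). The 5 genes other than gja1b lay above the tag controls in every array of both groups.

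Over the 6 sets of arrays, gfap ran from wild type 4 to 6 (357 units) through mutant 4 to 6 (201), 12-somite control (159), mutant-labelled 1 to 3 (117) and wild type 1 (108) to Foggy(DelCter) (94.9). Only the last neighbours overlapped in range. Olig3 was also highest in wild type 4 to 6 and in mutant 4 to 6, whose range overlapped that of the 12-somite control, and was lowest in wild type 1 (56.7). Slc1a3a had the same 3 groups on top, mutant 4 to 6 overlapping the 12-somite control, and was lowest in numbers 1 to 3.

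Vim followed another order, with wild type 4 to 6 (622 units), wild type 1 (307) and mutant 4 to 6 (282) above mutant-labelled 1 to 3 (198), 12-somite control (146) and Foggy(DelCter) (92.8), and no neighbours overlapped. Both wild-type groups thus stood on top for vim. Gja1b and slc1a2b began with wild type 1 (755 and 883 units) and mutant-labelled 1 to 3 (474 and 830 units). In the lower part of the slc1a2b order, mutant 4 to 6 and Foggy(DelCter) overlapped.

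Other genes of radial glia and astroglia were mixed in numbers 4 to 6. Of 13 tested genes of that list apart from the 6 described here, 5 fell, 8 did not pass and none rose, with a median log2 difference of -0.33. The 5, named here after their values were seen, were the brain fatty acid binding protein gene fabp7a (-1.62 ± 0.23, adjusted p = 0.00183), the Notch target her4.2 (-1.41 ± 0.26, with 2 of 3 mutant arrays above the tag controls), the glial determinant sox9b (-0.94 ± 0.15), the receptor notch3 (-0.85 ± 0.17) and the membrane glycoprotein gene gpm6bb (-0.77 ± 0.19). Fabp7a averaged 304 units in mutant arrays 4 to 6 and 985 units in wild-type arrays 4 to 6. The glutamine synthetase genes glula (-0.02 ± 0.11, adjusted p = 0.901) and glulb (0.08 ± 0.13, adjusted p = 0.708) and the progenitor factors sox2 (-0.38 ± 0.16, adjusted p = 0.126) and sox3 (-0.33 ± 0.12, adjusted p = 0.0944) did not pass.

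At 12 somites, 12 genes of the same list apart from the 6 were tested, of which glulb alone rose (0.46 ± 0.13, adjusted p = 0.0401) and none fell, with a median of -0.07. Sox9b (-0.10 ± 0.13), notch3 (-0.15 ± 0.13) and her4.2 (0.01 ± 0.16) did not pass there, and fabp7a, with means of 15.6 units in both groups, did not pass the filter.

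**Figure D5:**
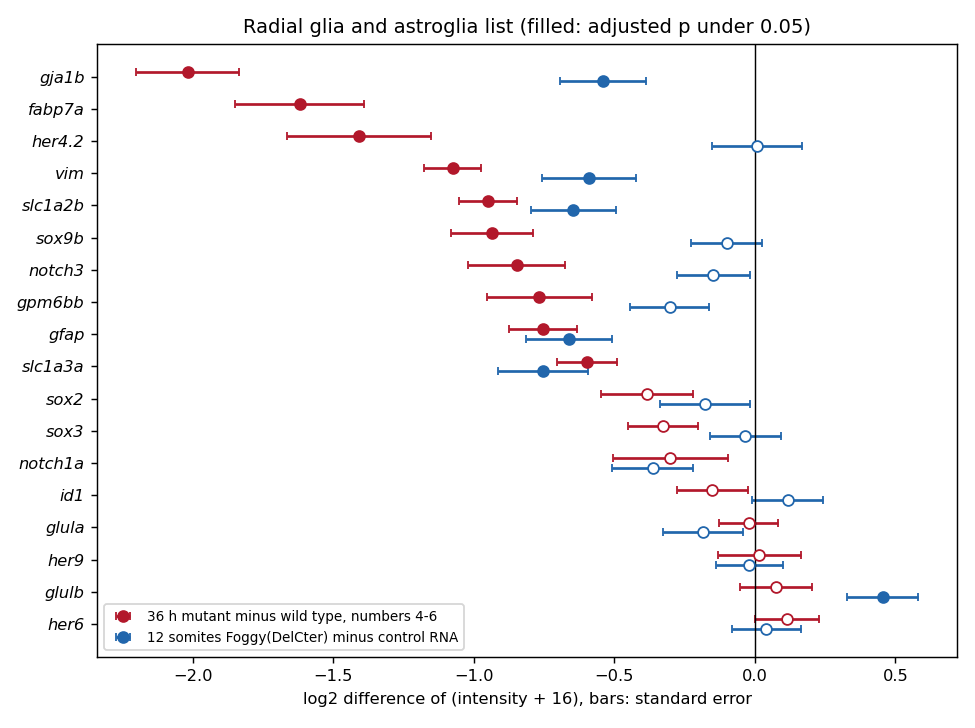
Log2 difference of (intensity + 16) with its standard error for the genes of the radial glia and astroglia list that passed the filter at 36 h, for the mutant minus wild type in numbers 4 to 6 (red) and Foggy(DelCter) minus control RNA at 12 somites (blue); filled points have a limma adjusted p under 0.05. At 36 h 10 red points are filled, from gja1b at -2.02 to slc1a3a at -0.60, while at 12 somites the filled points on the left are the 5 described genes of the list and glulb is filled on the right at 0.46.

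In the filament family, 11 tested genes apart from gfap and vim included 3 that fell and 2 that rose in numbers 4 to 6. The 2 that rose were the keratins krt8 (0.69 ± 0.11, adjusted p = 0.00285) and krt18a.1 (0.56 ± 0.10, adjusted p = 0.00647), of simple epithelia. The falls were the neuronal prph (with 1 of 3 mutant arrays above the tag controls), the muscle filament gene desma (-0.81 ± 0.13) and the lamin lmnb2. At 12 somites desma alone fell among 9 such genes (-0.97 ± 0.17, adjusted p = 0.00467). Desma averaged 64.5 units with Foggy(DelCter) and 143 units with control RNA.

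Among 9 tested genes of the Slc1 family and the glutamate and glutamine cycle apart from the 2 transporters, 4 fell in numbers 4 to 6: got1, a transaminase (-0.54 ± 0.13, adjusted p = 0.021), the glutamine carrier slc38a2 (-0.52 ± 0.13, with 2 of 3 mutant arrays above the tag controls), the neutral amino acid transporter slc1a4 (-0.50 ± 0.15) and got2b (-0.41 ± 0.13). None rose. At 12 somites 2 of the 9 rose, glulb and the glutamate dehydrogenase gene glud1b (0.50 ± 0.12, adjusted p = 0.0251), and none fell. Of 4 tested connexin and junction genes apart from gja1b, gja2 (-0.64 ± 0.16, adjusted p = 0.0218) and the lens connexin gja8b (-1.05 ± 0.31, adjusted p = 0.0427, with 1 of 3 mutant arrays above the tag controls) fell in numbers 4 to 6, and at 12 somites none of 3 passed.

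Around olig3, a list of dorsal neural tube and helix-loop-helix patterning genes was read, not all of them dorsal. Of its 13 other tested genes 9 fell in numbers 4 to 6 and 1, the roof plate homeobox gene msx1b, rose (0.56 ± 0.11, adjusted p = 0.0078). The proneural genes neurog1 (-1.27 ± 0.13, adjusted p = 0.000293) and ascl1a (-0.92 ± 0.11, adjusted p = 0.000754) had the smallest p-values of the falls. At 12 somites 1 of 11 fell, ascl1a (-0.86 ± 0.20, adjusted p = 0.0196), and msx2b rose (0.82 ± 0.12, adjusted p = 0.00191). In the oligodendrocyte lineage list 1 of 5 tested genes fell in numbers 4 to 6, olig2 (-0.52 ± 0.15, adjusted p = 0.0374). Olig2 is in both lists and is also 1 of the 9 falls above. The claudin gene cldnk rose (0.75 ± 0.12, adjusted p = 0.00292, with 2 of 3 wild-type arrays above the tag controls), while at 12 somites none of 5 passed.

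Among markers of other cell types in the same arrays 4 to 6, 12 of 15 neuron markers fell, with dpysl3 (-1.17 ± 0.10), gap43 (-1.15 ± 0.14) and tubb5 (-0.94 ± 0.13) at the smallest p-values. All 10 skeletal muscle markers fell, led by myhz1.3 (-3.44 ± 0.24), myl1 and mylpfa. So did all 3 tested lens markers, crybb1 (with 2 of 3 mutant arrays above the tag controls), cryba4 and gja8b. All 8 endothelium and blood markers fell too, with alas2 at -1.85 ± 0.15 and slc4a1a measured above the tag controls in 1 of 3 mutant arrays. Tie1 was at least 2.03-fold lower in the mutant, where no array lay above the tag controls. Of 6 notochord, cartilage and mesenchyme markers 4 fell, with col9a1b (-2.01 ± 0.18), col2a1a and col1a1a first by p. Of 4 microglia and myeloid markers 3 fell, lyz (with 1 of 3 mutant arrays above the tag controls), lcp1 (-1.02 ± 0.16) and coro1a. By limma none of 5 epidermis markers (2 at an unadjusted p under 0.05; epcam 0.34 ± 0.11) and none of 6 endoderm and yolk layer markers (1 at an unadjusted p under 0.05; fabp1b.1 0.23 ± 0.10) passed. Vim is also expressed in lens and mesenchyme and gja1b in many tissues, and the part of those tissues in their falls was not tested.

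At 12 somites 3 of 8 neuron markers fell, of 4 skeletal muscle markers 2, of 5 endothelium and blood markers 2, of 6 notochord, cartilage and mesenchyme markers 3 and of 4 microglia and myeloid markers 1. Of 6 endoderm and yolk layer markers 5 fell, with tfa at -1.24 ± 0.13. None of 5 epidermis markers passed, and no lens marker passed the filter. No marker of these lists rose at either stage.

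The probe sets most like each gene across the 16 arrays, by Pearson's r of normalized log2 values, differed between the 6. For gfap they were aqp8a.1 (r = 0.95), ttn.2 and srl, and for vim myl1 (r = 0.98) and 2 probe sets of mylpfa, the last 2 genes coding for fast muscle myosin light chains. Slc1a2b was closest to g3bp2a (r = 0.995), sox11a and si:ch211-132d3.4, and slc1a3a to hsp90aa1.1 (r = 0.98), lrrfip1a and ogfod1. Gja1b was closest to dcn (r = 0.98), tncb and gap43, and olig3 to sb:cb81 (r = 0.95) and 2 probe sets of f13a1b. The arrays come from 3 sets (numbers 1 to 3, numbers 4 to 6 and 12 somites), and differences between the sets enter these values. How much they weigh was not measured, so r here describes the 16 arrays and carries no test.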

How the data were processed

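The deposited values are 1 intensity per probe set and array on a linear scale. From the values, the authors had scaled each array to a 2% trimmed mean of 150.0 units. Which software summarised the probes was not given in the sources used here, and the array platform was read from the control names in the deposited table. Array medians were 46.7 to 66.4 units. Precision is limited by how few arrays a group holds and, for dim genes, by background. Of 15617 rows, 115 controls were left out. Names came from the platform annotation (10795 probe sets with 1 symbol, 135 with several, 4572 with none), updated by Entrez number through RefSeq names of GRCz12tu, which changed 1 symbol.

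Each comparison was fitted alone on log2(value + 16) with limma 3.58.1 (lmFit, then eBayes; R 4.3.3), 2-sided, with Benjamini-Hochberg adjustment over 10851 probe sets left after the 30th percentile of mean signal was cut away, and called at an adjusted p under 0.05. The 36 h arrays (log2 medians 0.373 apart) and the fits that span both stages were quantile normalized, and the 12-somite arrays (0.103 apart) were not. The fit was tested on simulated data with independent noise and no quantile normalization. That test therefore did not cover the normalization used at 36 h or scatter shared between arrays.

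The 6 genes, the split by title number, the gene lists and the rule for named genes were chosen with earlier results of these data known. From each list the 3 called genes with the smallest p at 36 h in numbers 4 to 6 were to be named, or, in a list with no call, the gene of lowest p, and for each of the 6 genes the 3 probe sets with the highest r. Other genes named, such as fabp7a, her4.2, sox9b, notch3, gpm6bb, the glutamine synthetase genes, sox2, sox3, krt18a.1, prph, desma, lmnb2, slc38a2, slc1a4, got2b, msx1b, msx2b, glud1b and tfa, were chosen after their values were seen. Lists use the brightest probe set per symbol.

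Groups share title numbers. Deviations from the group means of same-numbered arrays correlated at r of 0.237, 0.23 and 0.181 at 12 somites. Within numbers 4 to 6 the values were 0.0609, 0.278 and 0.355. Over all 36 h arrays they were 0.691 to 0.903, where the gap between the number sets enters. The same-numbered r was the highest for every number at 12 somites and within numbers 4 to 6. Over all 36 h arrays that did not hold for number 6. With the replicate block, calls over all probe sets were 2731 against 2098 in numbers 4 to 6, and 1603 against 1223 at 12 somites. These values do not settle whether shared numbers pair the samples, and the main fits used no pairing at either stage. Alternatives were another normalization, no filter, pseudocounts of 1 and 64, a trended robust prior, the replicate block, a set block and each array left out. The effect within numbers 1 to 3 was added after seeing the data.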

Additional observations from a re-analysis of the deposited data

Results flagged for a closer look

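Among the 4 wild-type arrays at 36 h, array 1 stood far from the other 3 for 3 genes. For slc1a2b, at 883 units, the gap to its nearest neighbour made up 0.987 of the range of the group. For slc1a3a (112 units) the share was 0.913 and for olig3 (56.7 units) 0.916. Such a test marks about 1 in 20 groups by chance, and array 1 is the one wild-type array of numbers 1 to 3, which differ from numbers 4 to 6 in most probe sets.

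The mutant effect in numbers 4 to 6 minus the Foggy(DelCter) effect at 12 somites was -1.68 for gja1b on the log2 scale (adjusted p = 0.00119), with gja1b at background at 12 somites. The mutant effect in numbers 4 to 6 minus that in numbers 1 to 3 was -1.36 for olig3 (adjusted p = 0.00252), -0.858 for slc1a2b (0.0122), -0.865 for gfap (0.0258) and -1.28 for gja1b (0.0356), each resting on 1 wild-type array in numbers 1 to 3.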

How the results depend on the processing

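In numbers 4 to 6, all 78 values of the 6 genes under other settings kept their direction and call, the replicate block included, and all 66 did so in each of the comparisons between the number sets and between the stages. With 1 array left out, calls over all probe sets in numbers 4 to 6 ran from 1165 to 1590, against 2098 (1165 without wild type 4, 1183 without mutant 5, 1243 without mutant 4 and 1268 without wild type 5), and with the replicate block they were 2731. At 12 somites, 27 of 70 values of the 6 genes lost their call and none turned. Calls there were 1223, and 750 without the filter, where 3 of the 6 genes were called; with 1 array left out they ran from 597 (without control 3; 669 without Foggy(DelCter) 2, 739 without Foggy(DelCter) 3 and 801 without control 1) to 923, with 1 to 4 of the genes called and gja1b past the filter in 4 of these 6 fits. With the replicate block all 6 genes remained called at 12 somites.

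Over all 10 arrays at 36 h, 24 probe sets were called, 6 with the values as deposited, 1024 with the replicate block and 1425 with the set block, where 4 of the 6 genes were called in each block fit, and 79 within numbers 1 to 3, where 1 was. Leaving out 1 array gave 1 (without wild type 4 or 5) to 270 calls (without wild type 1), 3 without wild type 6, 8 to 13 without any of mutants 1 to 5, and 0 to 1 of the genes, vim being called without wild type 1 by limma. The sign of slc1a2b turned, from 0.17 to -0.73 with the replicate block, -0.66 with the set block, -0.091 within numbers 1 to 3 and -0.19 to 0.86 with 1 array left out. Within numbers 1 to 3 gfap was 0.11 and olig3 0.59, turned from -0.74 and -0.66. The cause was not tested. For the difference of the 36 h and 12-somite effects, limma called 0 of the genes with a pseudocount of 1 (3 at an unadjusted p under 0.05) and 2 with 64. For the difference between the number sets, 2 of the genes were called without the filter. Calls over all probe sets in these fits are not given here, so the counts describe the 6 genes only. In the difference between the number sets, 609 and 576 probe sets were called with a pseudocount of 64 and with the trended prior, against 357.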

Other observations

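Between the arrays labelled mutant 1 to 3 and mutant arrays 4 to 6, the 13 tested genes of the radial glia and astroglia list apart from the 6 described here went both ways. Of the 13, 6 were higher in numbers 1 to 3, 4 were lower and 3 were not called, with a median log2 difference of -0.05, beside -0.04 over all probe sets tested. Fabp7a averaged 3857 units in arrays labelled mutant 1 to 3 and 304 units in mutant arrays 4 to 6, a log2 difference of 3.82 ± 0.19 (limma adjusted p = 1.6e-07). Sox9b averaged 250 and 83.7 units in the same order (1.31 ± 0.11, limma adjusted p = 4.77e-06). Glula was lower in numbers 1 to 3, with 377 units there and 1663 units in mutant arrays 4 to 6 (-1.99 ± 0.10, limma adjusted p = 1.31e-07). These 3 genes were chosen after their values were seen, and calls were common in this comparison, at 34.3% of all probe sets higher and 37.1% lower.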
